A study of Rattus norvegicus with 15 samples.

Results

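The genes described here are those of the rat major histocompatibility complex (MHC) and of the pathway that loads peptides onto MHC class I molecules. A gene was a member if its name in the transcript table began with RT1-, the rat MHC prefix, or was B2m, Tap1, Tap2, Tapbp, Psmb8, Psmb9, Psmb10, Nlrc5 or Erap1. The rule found 40 genes, with 111 transcripts, of 37367 genes and 85322 transcripts in all. The FPKM values (fragments scaled by transcript length and library depth) of the named transcripts of a gene were summed in each library, and 23 of the 40 members had a mean of at least 0.5 FPKM over the 15 libraries, as had 16124 genes in all. These 23 were tested. The rule names genes by prefix, so its 31 RT1- genes hold 21 class I genes, of which 13 were tested, and 10 class II genes, of which 1 was tested. All 9 other members were tested. The members under 0.5 FPKM were the class I genes RT1-CE1, RT1-CE3, RT1-CE10, RT1-M2, RT1-M4, RT1-M5, RT1-M6-2 and RT1-T24-4 and the class II genes RT1-Ba, RT1-Bb, RT1-Da, RT1-Db1, RT1-Db2, RT1-DMb, RT1-DOa, RT1-DOb and RT1-Ha. Of these, RT1-M2, RT1-Db2, RT1-DOb and RT1-Ha were listed at 0 in every library.

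MHC class I molecules show peptides from inside a cell to cytotoxic T cells. The proteasome cuts proteins into peptides, and in the immunoproteasome the subunits Psmb8, Psmb9 and Psmb10 take the places of the constitutive subunits Psmb5, Psmb6 and Psmb7. The transporter formed by Tap1 and Tap2 carries the peptides into the endoplasmic reticulum, where Erap1 trims them and tapasin (Tapbp) helps to load them onto a class I heavy chain bound to beta-2 microglobulin (B2m). In the rat the RT1-A genes encode classical heavy chains, and the RT1-CE, RT1-M, RT1-N, RT1-S and RT1-T genes lie in further class I regions. Nlrc5 is a transactivator of class I genes, and interferons raise most genes of the pathway in many cell types through factors such as Irf1. Endothelial cells carry class I molecules at their surface and are a barrier that T cells meet when they enter the brain.

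The libraries came from primary brain microvascular endothelial cells (BMECs) of Spraque-Dawley littermates (the labels' spelling) aged 2 to 3 weeks, grown from cerebral microvessels. Both sexes were used in equal share. Cells were irradiated with x-rays from a linear accelerator, and the 5 groups of 3 libraries were unexposed controls, labelled as cultured for 12 h, and cells taken 12 h or 24 h after 5 Gy or 20 Gy. The labels do not say which animals each library came from, so the spread between libraries may be partly technical. No unexposed cells cultured for 24 h were analysed here, so time after exposure and time in culture cannot be told apart in the 24 h groups. All 4 exposed groups were compared with the same 3 control libraries.

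Depth, read from the smallest differences among low FPKM values, was 5.44 to 7.49 gigabases aligned per library, and the low values of short transcripts were whole multiples of a fixed step in aligned bases, within 0.05 of a step, in 77.0% to 81.8% of cases. The endothelial label was only weakly borne out by the named transcripts of the markers. Unnamed transcripts in named loci were left out of all marker sums given here, so a level near 0 need not mean absent RNA. Of 14 endothelial markers, 12 were in the table, 4 had a mean of at least 0.5 FPKM, and Tie1 and Emcn were listed at 0 in every library. Their summed level was 4.07 to 14.7 FPKM in the controls and 1.97 to 17.7 FPKM over all libraries. Summed fibroblast markers (8 genes, all of them over 0.5 FPKM) stood at 1607 to 1724 FPKM in the controls, 1176 to 1382 and 1186 to 1338 FPKM 12 h after 5 Gy and 20 Gy, and 363 to 497 and 304.0 to 448 FPKM at 24 h. Of these 8 markers, 5 fell 24 h after 5 Gy and 6 fell 24 h after 20 Gy. Much of the fall in the sum lay in Col1a1 and Col3a1, at 438 and 535 FPKM in the controls and 13.2 and 26.9 FPKM 24 h after 5 Gy. Pdgfra, at 52.1 and 60.8 FPKM in these groups, was not among the markers that fell. Markers of immune cells, which carry much MHC, were low. The 12 microglia and macrophage markers summed to 0.932 to 8.74 FPKM in the controls and to at most 0.838 FPKM in every exposed library, so the sum was lower in all exposed groups, with Ptprc and Cx3cr1 at 0 throughout. None of them had a mean of at least 0.5 FPKM, and none was tested. In the controls the SD of C1qa, C1qb, C1qc and Tyrobp (0.813, 0.995, 1.53 and 0.534 FPKM, n = 3) exceeded their means. Csf1r went the other way, from 0.0158 FPKM in the controls to 0.0961 and 0.110 FPKM at 24 h. The lymphocyte markers summed to at most 0.0648 FPKM and the 7 dendritic cell markers to 1.49 to 2.74 FPKM. The 8 pericyte and smooth muscle markers summed to 27.8 to 29.9 FPKM in the controls and 10.4 to 14.7 FPKM at 24 h. Nearly all of this was Pdgfrb and Cspg4 (13.5 and 14.7 FPKM in the controls), which fell at 24 h after both doses. Myh11, the other of the 3 tested, went from 0.0608 FPKM to 0.990 and 1.17 FPKM at 24 h and reached a mean of 0.5 FPKM only through exposed groups. The part of any of these marker changes in the member results was not tested, and in bulk RNA fewer cells of a type and less RNA per cell cannot be told apart.

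A gene was called changed at an adjusted p under 0.05 (limma on log2(FPKM + 1), Benjamini-Hochberg over all 16124 genes) with a fold change of at least 1.5. Few members changed at 12 h. Of the 23 members, 2 were called 12 h after 5 Gy (Tap1 higher, Erap1 lower) and 2 were called 12 h after 20 Gy (Tap1 and RT1-CE5 higher), which is 8.70% of the members in each case. The share of all genes called was 7.90% after 5 Gy (4.11% higher, 3.79% lower) and 6.81% after 20 Gy (3.93% higher, 2.88% lower). At 24 h after 5 Gy, 9 members were called, with Tap1, Nlrc5 and RT1-CE5 higher and Psmb10, RT1-DMa, RT1-M3-1, RT1-N3, RT1-T24-1 and RT1-T24-3 lower. That is 39.1% of the members against 33.5% of all genes (14.7% higher, 18.8% lower). At 24 h after 20 Gy only Tap1 and Nlrc5 were called higher and Psmb10 lower, 13% of the members against 33.0% of all genes (12.6% higher, 20.5% lower). Nlrc5, RT1-T24-1 and RT1-T24-3 reached the mean of 0.5 FPKM only or mainly through groups in which they were high. Their calls in these counts are therefore no support for a change. The median log2 fold change of the 23 members was 0.03, -0.00, -0.11 and -0.24 in the order 5 Gy and 20 Gy at 12 h and 5 Gy and 20 Gy at 24 h, beside 0.02, 0.01, -0.09 and -0.16 over all genes. The last of these medians is a shift of the whole table, which quantile normalization reduced to -0.03. Tap1 was the single member called higher in all 4 comparisons. The count for 20 Gy and 24 h was 5 without control replicate 1 or without replicate 2 or 3 of the exposed group.

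**Figure D1:**
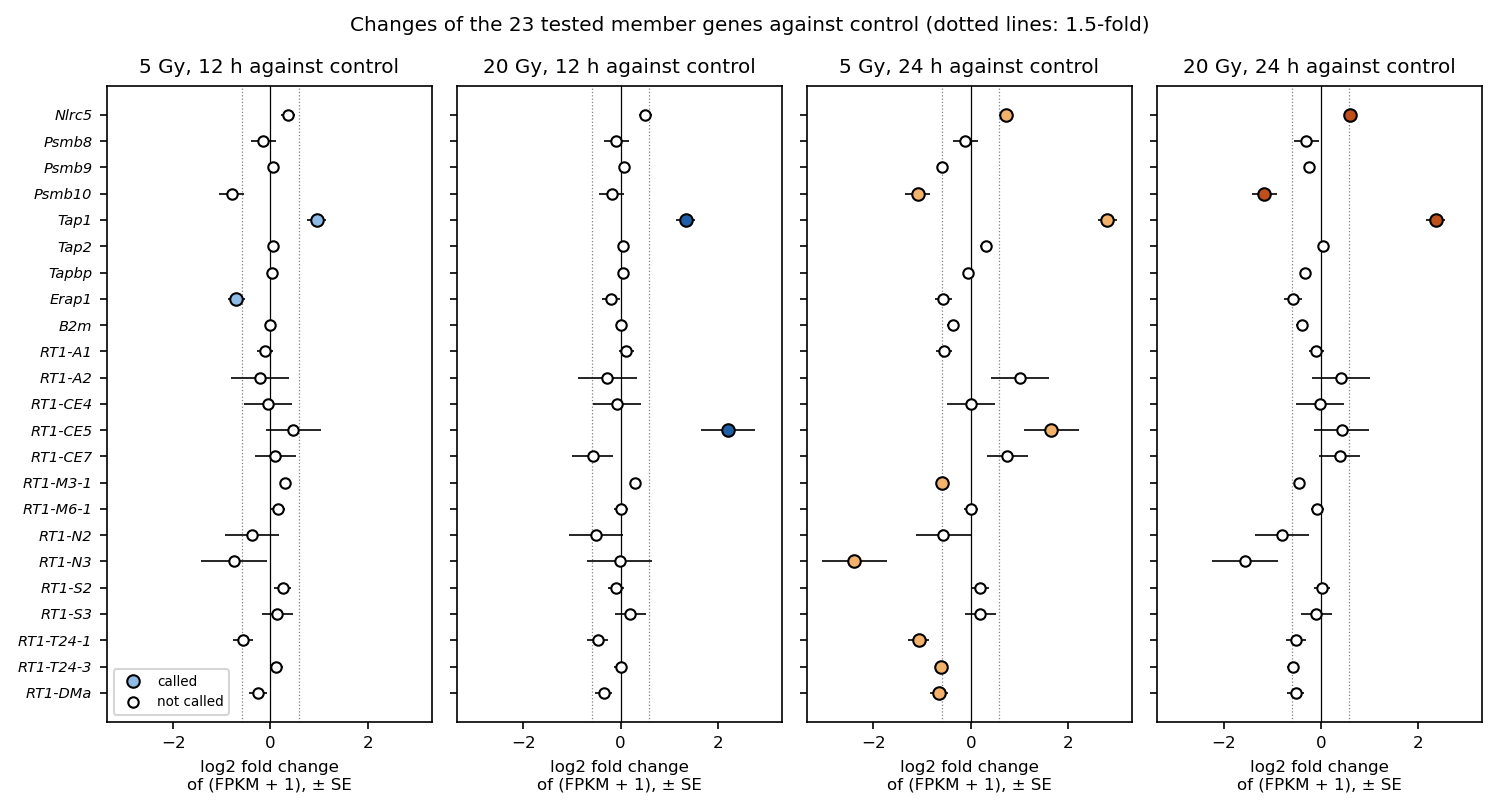
Log2 fold change of (FPKM + 1) against control (horizontal axis, ± SE) for the 23 tested members, 1 panel per exposed group; filled points were called, open points were not, and dotted lines mark 1.5-fold. Tap1 lies to the right in every panel, Psmb10 lies near -1 in both 24 h panels, and most other members lie within the dotted lines.

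Tap1, the first subunit of the peptide transporter, showed the clearest change. Its summed FPKM was 4.95, 6.82 and 7.51 in the control libraries, 10.9, 15.6 and 13.5 at 12 h after 5 Gy, and 20.4, 18.1 and 14.7 at 12 h after 20 Gy. At 24 h it reached 53.1, 48.9 and 49.99 after 5 Gy and 42.7, 27.4 and 42.3 after 20 Gy. Every exposed library lay above every control library, and every 24 h library lay above every 12 h library. On the FPKM scale the group means were 2.07, 2.76, 7.88 and 5.83 times the control mean of 6.43 ± 1.33 (SD, n = 3), in the order 5 Gy and 20 Gy at 12 h and 5 Gy and 20 Gy at 24 h. The log2 fold changes were 0.95, 1.34, 2.81 and 2.36 (SE 0.20), with adjusted p of 0.00856, 0.00122, 4.9e-07 and 2.0e-06 (limma). Tap1 belongs to the genes that the study itself singled out from these libraries, so these tests are no independent evidence of its rise.

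Tap2, the other subunit of the transporter, is encoded further along chromosome 20 and did not follow Tap1. It stood at 11.3 ± 1.21 FPKM in the controls, 11.8 ± 0.982 and 11.8 ± 0.0860 FPKM at 12 h after 5 Gy and 20 Gy, and 14.3 ± 1.90 and 11.8 ± 1.27 FPKM at 24 h (SD, n = 3). Its log2 fold change of 0.31 at 24 h after 5 Gy had an adjusted p of 0.0434 but was under the 1.5-fold limit. The ratio of Tap1 to Tap2 within a library therefore moved from 0.578 ± 0.169 in the controls to 1.13 ± 0.239 and 1.5 ± 0.25 at 12 h and to 3.56 ± 0.314 and 3.18 ± 0.665 at 24 h (SD, n = 3). Tapasin, the loading chaperone, held at 33.8 ± 2.78 FPKM in the controls and 34.4 ± 1.94, 34.9 ± 1.69 and 32.6 ± 3.06 FPKM in the first 3 exposed groups. At 24 h after 20 Gy it was at 26.9 ± 3.55 FPKM, with every library below the controls (log2 fold change -0.32, adjusted p 0.0247), again within 1.5-fold.

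**Figure D2:**
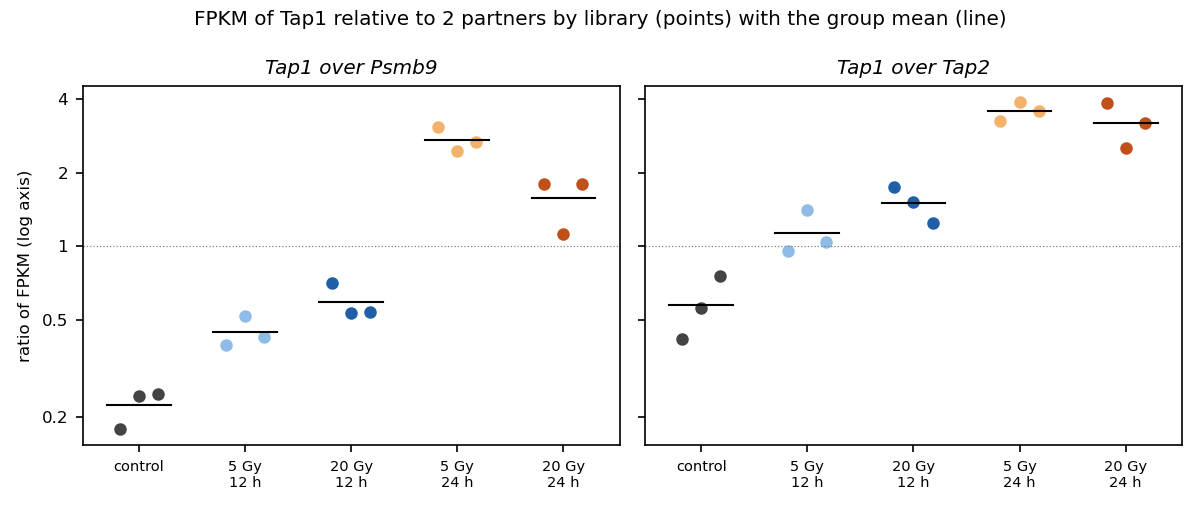
Ratio of Tap1 FPKM to Psmb9 FPKM (left) and to Tap2 FPKM (right) on a log axis, by group; points are libraries, lines are group means and the dotted line marks equal FPKM. The ratio to Psmb9 is at most 0.25 in the controls and at least 1.12 in every 24 h library, and the ratio to Tap2 is at most 0.755 in the controls and at least 2.51 at 24 h.

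The Tap1 locus holds more than the Tap1 transcripts. In Rnor_6.0, the build of the table, Tap1 lies at chr20:3979035-3989669 on the plus strand, and its longest transcript (11 exons, 2944 bases) carried most of its FPKM, from 5.82 in the controls to 48.2 and 35.2 at 24 h after 5 Gy and 20 Gy. The gene LOC103689996 downstream was assembled into the same locus, along with 2 unnamed transcripts that start with Tap1 and end close to the end of LOC103689996. LOC103689996 itself was at 11.1, 11.3, 10.8, 13.4 and 9.74 FPKM in the controls and the 4 exposed groups, and was called in no comparison with control. Counting all transcripts of the locus together, an alternative chosen after seeing the data, gave 21.8 FPKM in the controls and 28.7, 35.5, 67.9 and 59.5 FPKM in the exposed groups. The log2 fold changes were then 0.38, 0.68, 1.60 and 1.40, of which the first, at 12 h after 5 Gy, was no longer called (adjusted p 0.0227, under 1.5-fold). The size of the Tap1 change thus depends on which transcripts are counted, and its direction does not.

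Psmb9, an immunoproteasome subunit, lies next to Tap1 on the opposite strand (chr20:3973420-3978845, Rnor_6.0), and the annotated starts of both genes are 190 bases apart. Because they are known to share a bidirectional promoter region and yet moved apart here, their start regions are printed from RefSeq (build GRCr8, 250 bases before to 50 after the start). The Tap1 window is chr20:4668494-4668793 on the minus strand and the Psmb9 window is chr20:4668750-4669049 on the plus strand, and they share 44 bases. Capitals mark matches to the interferon-stimulated response element core (GAAA, any 2 bases, GAAA) and to the NF-kB consensus, searched on both strands.
Tap1: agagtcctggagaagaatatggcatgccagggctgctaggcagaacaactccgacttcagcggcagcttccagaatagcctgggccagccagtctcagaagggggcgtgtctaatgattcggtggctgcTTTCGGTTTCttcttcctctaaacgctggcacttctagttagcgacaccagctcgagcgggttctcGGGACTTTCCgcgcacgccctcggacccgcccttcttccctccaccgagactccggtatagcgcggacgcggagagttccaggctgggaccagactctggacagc
Psmb9: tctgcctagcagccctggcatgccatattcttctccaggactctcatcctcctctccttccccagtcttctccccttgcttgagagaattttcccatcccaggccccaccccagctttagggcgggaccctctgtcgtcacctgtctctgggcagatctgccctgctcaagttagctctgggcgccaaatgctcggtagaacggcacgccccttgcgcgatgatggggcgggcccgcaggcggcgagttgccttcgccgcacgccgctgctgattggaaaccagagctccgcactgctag
In the Tap1 window the interferon element began 121 bases before the start and the NF-kB match 55 bases before it. No motif searched was found in the Psmb9 window. Both Tap1 matches lie outside the 44 shared bases, so the Psmb9 window did not cover them. The RefSeq starts in GRCr8 are further apart than the 190 bases between the Rnor_6.0 starts, so this absence depends on the starts used.

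Of the 23 tested members, 20 had a promoter in the RefSeq table (RT1-CE7, Nlrc5 and Erap1 did not). The interferon element core was found in 9 of these 20, namely B2m, Psmb8, Psmb10, RT1-N3, RT1-S2, RT1-S3, Tap1, Tap2 and Tapbp, and in 3.92% of all 33469 promoters. The NF-kB consensus was found in 7 of the 20, namely B2m, RT1-A1, RT1-A2, RT1-CE4, RT1-CE5, Tap1 and Tapbp, and in 4.18% of all promoters. The shares of all promoters also cover genes that were not tested. Over all 34 members with a promoter, tested or not, 9 held the interferon element and 9 the NF-kB consensus. RT1-A1, RT1-A2 and RT1-CE4 hold the same matched letters, so these may not be separate observations. Of the 9 members with an interferon element, Tap1 was called higher at 24 h, Psmb10 and, after 5 Gy, RT1-N3 were called lower, and B2m, Psmb8, RT1-S2, RT1-S3, Tap2 and Tapbp were not called against control. Stretches of 80 bases around the matches are printed for B2m, for Psmb10, which fell and has a pair of interferon elements, and for RT1-A1, a classical heavy chain with NF-kB matches that overlap each other. They lie at chr3:129549160-129549239 (plus strand), chr19:50743293-50743372 (minus strand) and chr20:4907059-4907138 (plus strand) of GRCr8.
B2m: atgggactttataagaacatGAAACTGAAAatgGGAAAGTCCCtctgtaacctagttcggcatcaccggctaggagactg
Psmb10: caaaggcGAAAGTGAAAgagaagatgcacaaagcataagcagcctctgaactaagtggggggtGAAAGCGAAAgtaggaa
RT1-A1: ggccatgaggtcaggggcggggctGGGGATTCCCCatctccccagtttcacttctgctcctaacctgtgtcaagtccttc
The core of site alpha (TGACGC), a part of class I promoters, was found in 1 of the 20, RT1-M3-1, and in 6.73% of all promoters. The p53 hemisite, added after seeing the data, was found in 3 of the 20 (Psmb8, RT1-DMa and RT1-M3-1) and in 7.98% of all promoters. These are matches of letters in 1 reference sequence and show no binding.

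Psmb9 did not rise with Tap1. Its FPKM was 27.5, 27.9 and 30.0 in the controls, 27.5, 30.1 and 31.5 at 12 h after 5 Gy, and 28.8, 33.9 and 27.3 at 12 h after 20 Gy. At 24 h it was 17.4, 20.0 and 18.8 after 5 Gy and 23.8, 24.6 and 23.6 after 20 Gy, with every library of both groups below the controls. The log2 fold change against control was -0.58 at 24 h after 5 Gy (adjusted p 2.5e-04), just under the 1.5-fold limit and past it without control replicate 1 or 2 (-0.60) or without replicate 2 (-0.63) or 3 (-0.59) of the exposed group, and -0.24 at 24 h after 20 Gy (adjusted p 0.0513). The ratio of Tap1 to Psmb9 was 0.225 ± 0.0390 in the controls, 0.447 ± 0.0645 and 0.595 ± 0.1 at 12 h, and 2.72 ± 0.312 and 1.57 ± 0.393 at 24 h (SD, n = 3).

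Psmb10, on chromosome 19, was the member that fell after both doses at 24 h. The control libraries had 19.7, 25.3 and 31.9 FPKM, the 24 h libraries 11.3, 11.9 and 10.6 FPKM after 5 Gy and 9.05, 11.3 and 11.9 FPKM after 20 Gy, and these ranges did not overlap with the controls. The log2 fold changes were -1.09 (adjusted p 0.00432) and -1.16 (adjusted p 0.00299, limma), with an SE of 0.26. At 12 h the values were 8.36, 20.1 and 16.1 FPKM after 5 Gy (log2 fold change -0.80, adjusted p 0.0673, called without replicate 2 at -1.05) and 24.4, 23.1 and 19.4 FPKM after 20 Gy, and both groups overlapped with the controls. Psmb8 was called in no comparison and had a wide spread, with 24.1 ± 7.62 FPKM in the controls and group means between 18.9 and 22.1 FPKM after exposure (n = 3). Against control, 1 of the 3 immunoproteasome subunits was thus called lower at 24 h after each dose and none higher, where 18.8% and 20.5% of all genes were called lower, so the count does not set them apart.

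Of the 3 constitutive subunits that they replace, 1 was called lower at 24 h as well. Psmb5 fell from 76.4 FPKM in the controls to 44.5 and 50.1 FPKM at 24 h after 5 Gy and 20 Gy (log2 fold change -0.76 and -0.60, adjusted p 2.9e-05 and 2.0e-04), while Psmb6 and Psmb7 were called in no comparison with control. The ratio of Psmb10 to Psmb7 was 0.239 ± 0.0334 in the controls and 0.129 ± 0.00369 and 0.117 ± 0.0302 at 24 h. The ratio of Psmb9 to Psmb6 was 0.359 ± 0.0263 in the controls, 0.450 ± 0.0272 and 0.479 ± 0.0505 at 12 h, and 0.308 ± 0.0252 and 0.365 ± 0.0331 at 24 h (SD, n = 3). The ratio of Psmb8 to Psmb5 was 0.311 ± 0.0782 in the controls and 0.487 ± 0.101 and 0.385 ± 0.123 at 24 h.

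**Figure D3:**
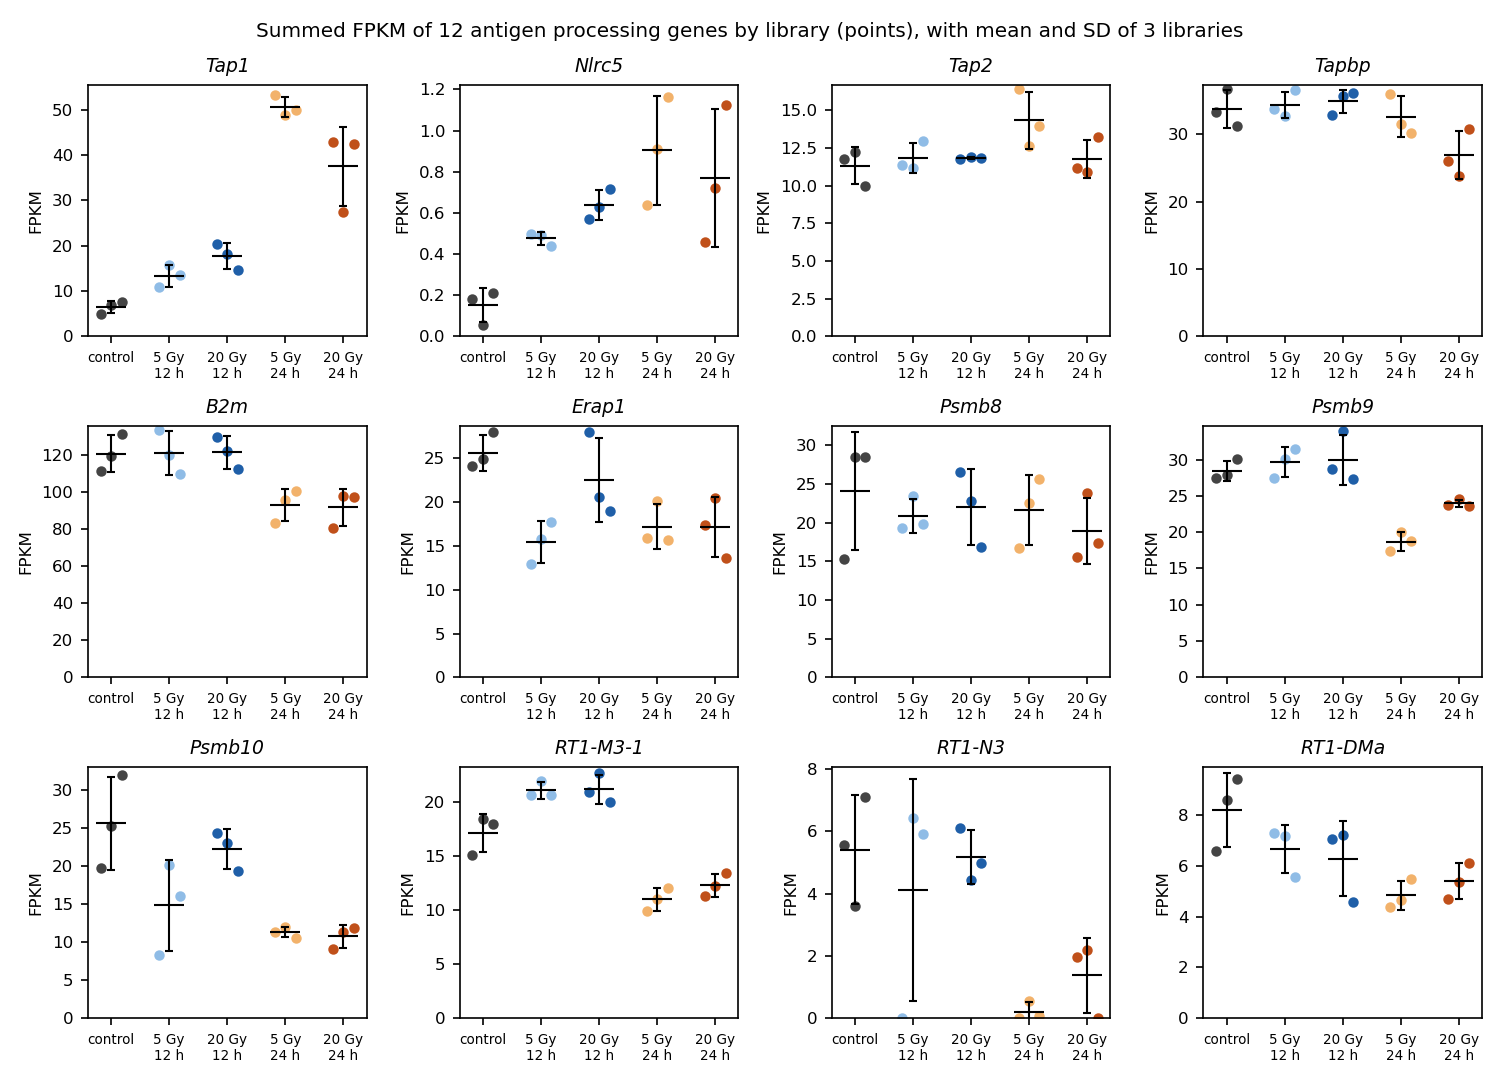
Summed FPKM (vertical axis, from 0) of 12 members in each library, by group; bars are the mean and SD of 3 libraries. Tap1 and Nlrc5 are higher in every exposed group, Psmb10 and RT1-M3-1 are lower in both 24 h groups, and Tap2 and Psmb8 stay near their control levels.

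Nlrc5, the transactivator, was near the limit of detection in the controls. Its FPKM was 0.183, 0.0569 and 0.212 in the control libraries, which corresponds to the aligned bases of 21.8, 6.99 and 27.2 whole read pairs. It was 0.438 to 0.499 FPKM at 12 h after 5 Gy, 0.570 to 0.718 FPKM at 12 h after 20 Gy, 0.637 to 1.17 FPKM at 24 h after 5 Gy and 0.459 to 1.12 FPKM at 24 h after 20 Gy, or 55.6 to 147 read pairs. All 12 exposed libraries lay above the 3 controls. The group means were 3.17, 4.24, 6.01 and 5.11 times the control mean, but on the log2(FPKM + 1) scale, which understates changes of low genes, the differences were 0.36, 0.51, 0.72 and 0.61 (SE 0.14). The adjusted p were 0.12, 0.0345, 0.00103 and 0.00343, and the 24 h groups were called. Nlrc5 passed the filter on low values, with a mean of 0.587 FPKM, only through exposed groups in which it was high, while the control mean of 0.150 FPKM lay under the limit, so a difference from the controls was built into its being tested and these p are no support for a rise. With a pseudocount of 0.1 the differences became 1.26, 1.62, 2.03 and 1.78, and all 4 groups were called. The call at 24 h after 20 Gy was lost without control replicate 2 (0.55, under 1.5-fold) or without replicate 3 of that group (0.47).

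Among 22 listed regulators of class I genes, 21 were in the table and 16 were tested. Irf1, an interferon-induced factor that binds the element printed above, was called higher in all 4 exposed groups, with 12 of 12 exposed libraries above the controls. It rose from 9.27 FPKM to 17.8 and 20.8 FPKM at 12 h after 5 Gy and 20 Gy and to 53.8 and 23.2 FPKM at 24 h (log2 fold change 0.91, 1.12, 2.45 and 1.26, adjusted p 0.0185, 0.00671, 3.2e-06 and 6.0e-04). Irf1 was also lower at 24 h after 20 Gy than after 5 Gy (log2 difference -1.19, adjusted p 0.0172), while Tap1 was not called between these groups (-0.45, 95% interval -0.88 to -0.02, adjusted p 0.309). At 24 h after 20 Gy the other called regulators were Nfya, Nfyc, Ifnar2 and Rfxap, which rose, and Ifnar1, which fell, so that 5 were higher and 1 lower of 16, where 12.6% of all genes were called higher and 20.5% lower. Nfya and Nfyc, subunits of the nuclear factor Y that binds MHC promoters, went from 4.20 to 13.2 FPKM and from 2.59 to 7.58 FPKM (log2 fold change 1.48 and 1.53, adjusted p 9.4e-05 and 0.0439, limma). The SD of Nfyc was 2.29 FPKM in the controls and 2.47 FPKM at 24 h after 20 Gy (n = 3), and its lowest library was at 0. Rfx5 and the class II transactivator Ciita were below 0.5 FPKM on average and were not tested.

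Of 20 interferon-response genes, 19 were in the table and 11 were tested. At 12 h, 2 were called higher after 5 Gy (Isg15 and Irf1) and 4 after 20 Gy (Irf1, Gbp5, Isg15 and Gbp2), and none lower, where 4.11% and 3.93% of all genes were called higher. At 24 h the calls went both ways, with 2 higher and 3 lower after 5 Gy and 3 higher (Irf1, Ifih1 and Gbp5) and 2 lower (Cxcl10 and Ifit2) after 20 Gy, where 33.5% and 33.0% of all genes were called in either direction. The median log2 fold change of the 11 was 0.30, 0.41, -0.19 and -0.36 in the 4 comparisons, beside 0.02, 0.01, -0.09 and -0.16 over all genes. Gbp5 passed the filter on low values only through exposed groups (means of 0.569 to 1.25 FPKM, beside 0.211 FPKM in the controls), so its calls are no support for a rise. Ifit2 passed it through the controls and 12 h groups and was at 0.42 and 0.20 FPKM at 24 h, so its calls are no support for a fall.

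B2m, the light chain of class I molecules, had the highest FPKM of the members. It was at 120.3 ± 9.92 FPKM in the controls and 120.8 ± 11.8 and 121.2 ± 8.78 FPKM at 12 h, and at 92.9 ± 8.85 and 91.6 ± 9.84 FPKM at 24 h after 5 Gy and 20 Gy (SD, n = 3). Every 24 h library lay below every control library, with log2 fold changes of -0.37 (adjusted p 0.0146) and -0.39 (adjusted p 0.011), which are within 1.5-fold. At 12 h the 95% intervals of the difference were -0.23 to 0.24 after 5 Gy and -0.22 to 0.25 after 20 Gy on the log2 scale.

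Erap1, the trimming peptidase, had 24.1, 24.9 and 28.0 FPKM in the controls and 12.9 to 17.7 FPKM at 12 h after 5 Gy, and was called lower there (log2 fold change -0.70, adjusted p 0.0242). The call was lost without control replicate 2 (adjusted p 0.0611) or 3 (0.0881), or without replicate 1 (0.0868) or 2 (0.059) of the exposed group, and with the unnamed transcripts of its locus added the difference was -0.30 (adjusted p 0.181). At 12 h after 20 Gy it was at 19.0 to 28.0 FPKM and overlapped with the controls, and at 24 h the log2 fold changes were -0.56 and -0.57 (adjusted p 0.0237 and 0.0217), within 1.5-fold, and passed that limit without control replicate 1 (-0.60 and -0.61), without control replicate 2 after 20 Gy (-0.59), or without replicate 2 of either exposed group (-0.67 and -0.70).

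The class I heavy chain genes are close copies of each other, and the split of reads between them is uncertain. Most of the signal in their loci was assigned to transcripts that the assembly left without a gene name and that the gene sums leave out. RT1-A1, a classical heavy chain, had 8.47 ± 0.342 FPKM in the controls and group means of 5.48 to 9.32 FPKM after exposure, with no call (log2 fold change -0.55 at 24 h after 5 Gy, adjusted p 0.0138, within 1.5-fold). RT1-A2 was listed at 0 in at least 1 library of every group and was called in no comparison. It passed the filter on low values through the 24 h groups (2.61 FPKM after 5 Gy and 0.740 FPKM after 20 Gy, beside 0.248 FPKM in the controls). The 3 libraries at 24 h after 5 Gy were at 0, 7.07 and 0.769 FPKM, so that mean rests on 1 high library. Without replicate 1 of that group, the library at 0, RT1-A2 would have been called there against control (log2 fold change 1.65, adjusted p 0.0345, limma) and against 12 h (1.86, adjusted p 0.0226). Because it passed the filter through this group, such calls would be no support for a rise. RT1-CE5 had 2.56 to 4.24 FPKM in the controls. It was at 10.2, 44.3 and 16.3 FPKM at 12 h after 20 Gy, and at 9.13, 7.23 and 32.9 FPKM at 24 h after 5 Gy, so 1 library in each group was far above the others. It was called in both (log2 fold change 2.21 and 1.66, adjusted p 0.028 and 0.0309), and leaving out any of the 3 controls ended either call (adjusted p 0.0606 to 0.0858 at 12 h and 0.0521 to 0.0908 at 24 h), as did leaving out that high library (1.64 with adjusted p 0.10, and 1.03 with adjusted p 0.129). The call at 12 h after 20 Gy was also lost without replicate 3 of that group (adjusted p 0.0619). Neither RT1-CE4 nor RT1-CE7 was called in any comparison.

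Summed over whole loci, named and unnamed transcripts together, the main RT1-CE locus gave a far steadier result than any of its RT1-CE genes alone. This alternative was chosen after seeing the data, and its tests run over 17802 loci. This main locus holds RT1-CE1, RT1-CE3, RT1-CE4, RT1-CE5 and RT1-CE7 (chr20:4638542-4943564, 47 transcripts, Rnor_6.0). The named genes AABR07044397.1 and AABR07044404.1 lie in it as well, and 84.9% of its FPKM was in unnamed transcripts. RT1-CE10 lies in another locus, which was called in no comparison. The main locus held 53.7, 52.9 and 50.4 FPKM in the controls. It held 108, 105.7 and 100.6 FPKM at 12 h after 5 Gy, 105, 114.6 and 113 FPKM at 12 h after 20 Gy, 93.2, 86.7 and 95.4 FPKM at 24 h after 5 Gy and 80.1, 92.7 and 110.4 FPKM at 24 h after 20 Gy. All 12 exposed libraries lay above the 3 controls. The log2 fold changes were 0.99, 1.07, 0.80 and 0.83 (SE 0.10), with adjusted p of 2.0e-05, 1.1e-05, 1.1e-05 and 8.7e-06 (limma), and the locus was called in all 4 comparisons. The share of all loci called was 10.2%, 8.85%, 42.0% and 41.2%. Weighting each transcript by its length, which makes the sum follow the fragments of the locus whatever their split among its transcripts, gave means of 1.98, 2.16, 1.97 and 2.06 times the control.

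The rise lay in the unnamed transcripts at 5 Gy and 12 h, where the named ones summed to 6.18 FPKM in the controls and 7.58 FPKM after exposure and the unnamed ones to 46.2 and 97.2 FPKM. In contrast, the locus of RT1-A1 and RT1-A2 was called in no comparison with control, at 29.7 FPKM in the controls and 38.8, 26.7, 30.2 and 25.6 FPKM in the exposed groups (95% interval of the log2 difference at 24 h after 20 Gy, -0.79 to 0.26). Reads of 1 class I gene may have been placed at another, so these are levels of loci in the reference and not of single heavy chains.

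**Figure D4:**
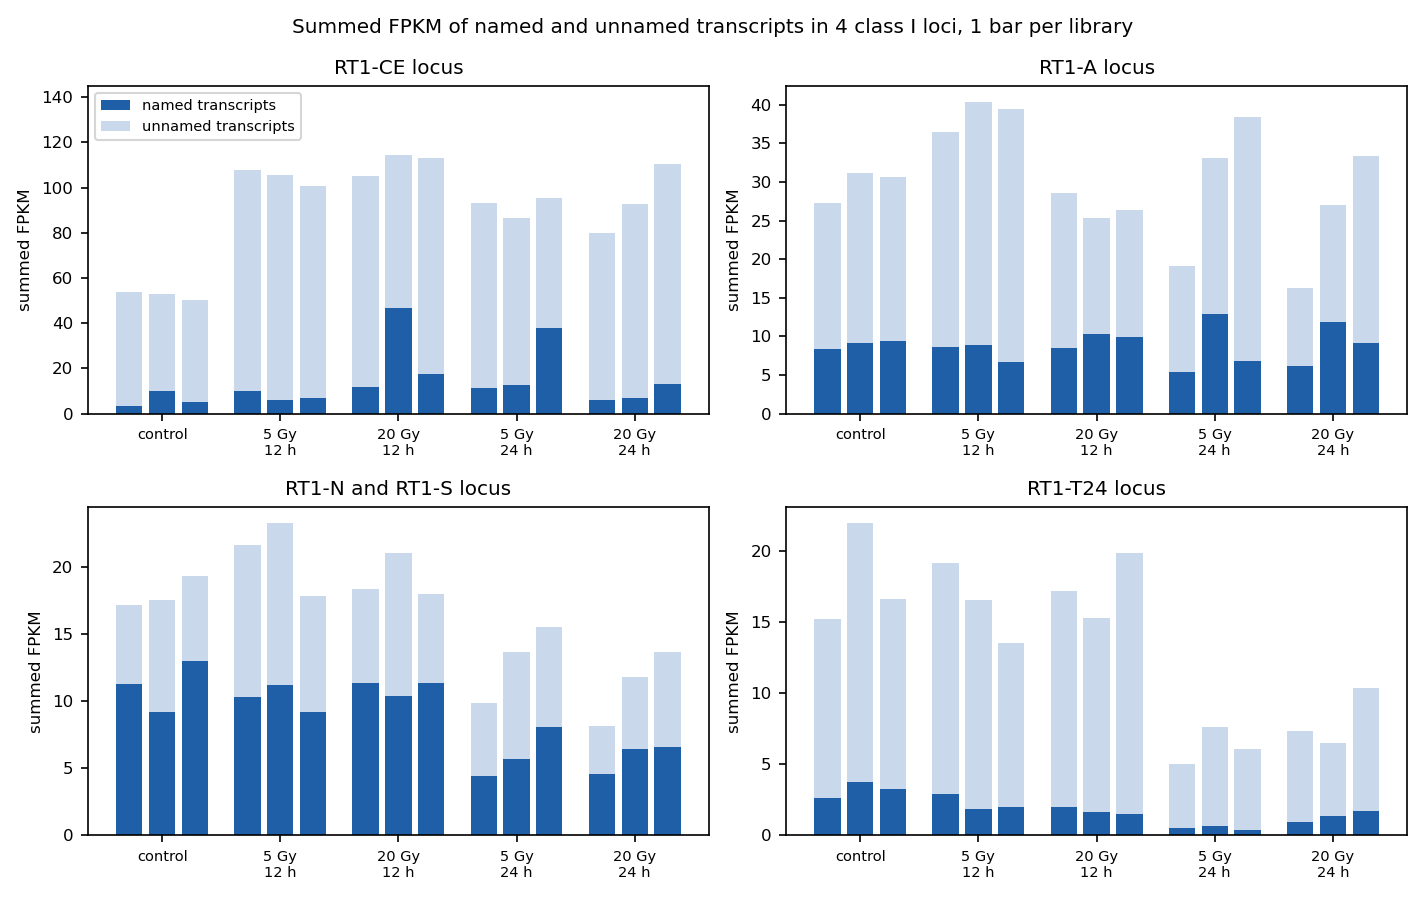
Summed FPKM (vertical axis, from 0) of named (dark) and unnamed (light) transcripts in 4 class I loci, 1 bar per library, in groups of 3. In the RT1-CE locus all exposed libraries, at 80.1 FPKM or more, stand above the controls, at 53.7 FPKM or less, and in the RT1-T24 locus the 24 h libraries stand below all others.

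Of the 8 tested class I genes of the RT1-M, RT1-N, RT1-S and RT1-T regions, 4 were called lower 24 h after the 5 Gy dose and 0 after 20 Gy, where 18.8% and 20.5% of all genes were called lower. These counts are no test between the doses, and none of the 8 genes was called between them. RT1-T24-1 and RT1-T24-3, among the 4 called lower, passed the filter on low values mainly through groups in which they were high. Their calls are therefore no support for a fall. RT1-M3-1, whose mouse counterpart presents formylated peptides, had 15.1 to 18.4 FPKM in the controls and 20.0 to 22.6 FPKM at 12 h, with both 12 h groups above the controls (log2 fold change 0.29 in each, adjusted p 0.0933 and 0.0922, not called). At 24 h it was at 9.92 to 12.0 FPKM after 5 Gy, called lower (-0.60, adjusted p 4.6e-04), and at 11.3 to 13.4 FPKM after 20 Gy (-0.45, adjusted p 0.00346, within 1.5-fold). The call was lost without control replicate 2 (-0.54) or 3 (-0.56), without replicate 1 of the exposed group (-0.53) and on the TPM scale (-0.48), all of them with an adjusted p under the limit but under 1.5-fold.

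RT1-N3 had 5.55, 3.59 and 7.10 FPKM in the controls and 0, 0.554 and 0.0791 FPKM at 24 h after 5 Gy, where it was called lower (log2 fold change -2.39, adjusted p 0.0119). At 24 h after 20 Gy it had 1.98, 2.18 and 0 FPKM and was not called (-1.56, adjusted p 0.0796), but was called without replicate 1 of the group 12 h after 5 Gy, which holds a 0 (adjusted p 0.00824). A value of 0 in a file of FPKM can be a failed estimate, and 1 library at 12 h after 5 Gy was also listed at 0. The whole locus that RT1-N3 shares with RT1-N2 and RT1-S3 fell less, from 18.03 FPKM to 13.05 and 11.2 FPKM at 24 h after 5 Gy and 20 Gy (log2 fold change -0.46 and -0.66, adjusted p 0.0386 and 0.00547), and only the second was called. That call was lost without replicate 1 of the 20 Gy group (-0.47), and the 5 Gy group would have been called without its replicate 3 (-0.59).

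RT1-T24-1 and RT1-T24-3 had 0.994 to 1.60 and 0.677 to 1.28 FPKM in the controls and fell at 24 h after 5 Gy to at most 0.104 and 0.415 FPKM (log2 fold change -1.07 and -0.61, adjusted p 0.00144 and 0.00231). RT1-T24-1, with a mean of 0.614 FPKM over all libraries, passed the filter mainly through the controls (1.24 FPKM), so its test against them is no support for a fall. RT1-T24-3, with a mean of 0.740 FPKM, passed it through the controls (0.98 FPKM) and the 12 h groups (1.14 and 0.96 FPKM). Its 24 h groups lay under the limit (0.29 and 0.33 FPKM), so its tests against controls or 12 h are no support for a fall either. After 20 Gy neither gene was called (-0.51 and -0.57, adjusted p 0.0713 and 0.00368), though RT1-T24-1 was without replicate 3 of that group (-0.78), and RT1-T24-3 was without control replicate 3 (-0.68) or replicate 2 (-0.62) or 3 (-0.59) of that group. The call of RT1-T24-3 was lost without control replicate 2 (-0.50) or without replicate 1 (-0.58) or 3 (-0.57) of the exposed group. Their locus, which holds RT1-T24-4 as well, had 15.2 to 22.0 FPKM in the controls, 13.5 to 19.9 FPKM at 12 h, and 5.03 to 7.60 and 6.46 to 10.4 FPKM at 24 h after 5 Gy and 20 Gy. It was called lower at 24 h after both doses (-1.39 and -1.07, adjusted p 3.4e-05 and 3.1e-04). RT1-M6-1, RT1-N2, RT1-S2 and RT1-S3 were called in no comparison, at group means of 0.158 to 5.45 FPKM.

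Class II genes, which serve antigen-presenting cells, were at or near 0 FPKM with 1 exception. RT1-DMa, which encodes a chain of the DM molecule that edits peptides on class II, was the single class II member over 0.5 FPKM. It had 6.59, 8.58 and 9.39 FPKM in the controls and 4.39 to 5.48 FPKM at 24 h after 5 Gy, where it was called lower (log2 fold change -0.65, adjusted p 0.0108). The call was lost without control replicate 3 (-0.55). The summed markers of microglia and macrophages, cells that carry class II, were also lower at 24 h after 5 Gy (0.183 to 0.332 FPKM, beside 0.932 to 8.74 FPKM in the controls). Each of these markers was below 0.5 FPKM on average, not all of them fell, and their part in this difference was not tested. At 24 h after 20 Gy RT1-DMa had 4.68 to 6.11 FPKM (-0.52, adjusted p 0.0328, within 1.5-fold, and past it without control replicate 1 at -0.65 or replicate 3 of that group at -0.60). Its partner RT1-DMb was at 0.0725 to 1.04 FPKM over all libraries, and the class II chaperone Cd74 at 0.515 to 4.84 FPKM, with no call. Of 7 further class II pathway genes, Cd74 among them, 3 were tested and 0 were called in any comparison.

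Within each dose, the 24 h groups were compared with the 12 h groups. After 5 Gy, 4 members were called (17.4%, against 28.6% of all genes, 11.6% higher and 16.9% lower). Tap1 rose further (log2 fold change 1.86, adjusted p 1.6e-05), and Psmb9 (-0.64), RT1-M3-1 (-0.88) and RT1-T24-3 (-0.73) fell. RT1-T24-3 passed the filter on low values through the controls and 12 h groups, so its tests here are no support for a fall. After 20 Gy, 4 were called (17.4%, against 28.9% of all genes, 9.99% higher and 18.9% lower): Tap1 rose (1.02, adjusted p 0.00139), and Psmb10 (-0.99), RT1-CE5 (-1.78) and RT1-M3-1 (-0.74) fell. The RT1-CE5 call rested on the high library at 12 h after 20 Gy, without which it was -1.21 (adjusted p 0.11), and on replicate 1 at 24 h (-1.44 and adjusted p 0.10 without it). Leaving out 1 library also added calls. Without replicate 1 at 12 h after 5 Gy, Psmb10 (-0.63) was called after 5 Gy and RT1-N3 after both doses (-2.59 and -1.54). RT1-T24-3 (-0.57) was called after 20 Gy without replicate 2 at 12 h (-0.63) or without replicate 2 (-0.62) or 3 (-0.59) at 24 h.

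Between doses no member was called at either time, where 0.0372% of all genes were called at 12 h and 1.53% at 24 h (limma). At an unadjusted p under 0.05 with the fold limit, 2 members, Psmb10 (0.63) and RT1-CE5 (1.73), would have passed at 12 h and 0 at 24 h. At 24 h Psmb9 was higher after 20 Gy than after 5 Gy by 0.34 (95% interval 0.15 to 0.54, adjusted p 0.0846) and RT1-A1 by 0.46 (0.12 to 0.80, adjusted p 0.182, called without replicate 1 after 20 Gy at 0.64), while Tapbp was lower by a log2 difference of -0.27 (-0.50 to -0.05, adjusted p 0.24) and Tap2 by -0.26 (-0.51 to -0.01, adjusted p 0.317). RT1-T24-1 differed by 0.56 (0.09 to 1.02, adjusted p 0.24), with 0.0624 FPKM after 5 Gy and 0.628 FPKM after 20 Gy, and every 20 Gy library lay above every 5 Gy library. RT1-CE5 differed by -1.23 (-2.46 to 0.00, adjusted p 0.337), with groups that overlapped. Nlrc5 differed by -0.11 (-0.41 to 0.18) and B2m by -0.02 (-0.26 to 0.22), with intervals that span 0.

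Genes of the pathway that are not members also moved singly. Of 10 chaperones and enzymes that help to load class I, Hsp90b1 was called higher and Tapbpl, a relative of tapasin that edits peptides, lower at 24 h after both doses, where 33.5% and 33.0% of all genes were called. Hsp90b1 was low in its named transcripts, at 0.845 FPKM in the controls and 2.64 and 2.61 FPKM at 24 h. Tapbpl went from 39.8 FPKM to 23.4 and 25.0 FPKM (log2 fold change -0.74 and -0.65, adjusted p 1.9e-05 and 5.8e-05). Of 15 genes that supply peptides, 14 were tested, and 3 fell and none rose at 24 h after each dose, a share near the 18.8% and 20.5% of all genes called lower. Among them Psme2, a subunit of an activator cap of the proteasome, fell from 32.2 FPKM to 17.7 and 19.1 FPKM (-0.83 and -0.72, adjusted p 9.0e-05 and 2.7e-04). Of 10 class I-like molecules outside the RT1 names, 7 were in the table and 5 were tested: Mr1, which presents vitamin metabolites, rose at 24 h after 5 Gy and 20 Gy (0.75 and 1.05, adjusted p 0.0128 and 0.00171), and Hfe fell after 20 Gy (-0.65, adjusted p 0.0072). These calls stand beside the 33.5% and 33.0% of all genes called at 24 h. At 12 h, Uggt1 after 20 Gy was the single call among these 3 lists.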

How the data were processed

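Paired reads of 150 bases were sequenced from poly-A selected RNA, prepared from total RNA. The authors trimmed them with Trimmomatic, mapped them with HISAT2 to the rat genome (Rnor_6.0), assembled transcripts with StringTie 1.3.5, and deposited the transcripts' FPKM as a single table, used here without rescaling. The strandedness of the reads is not given in the sources used here. The table holds 85322 transcripts, of which 34171 unnamed transcripts in named loci were left out of the gene sums.

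Genes whose summed FPKM averaged 0.5 or more over 15 libraries were tested in R 4.3.3 with limma 3.58.1 on log2(FPKM + 1), with 1 mean per group, 10 residual degrees of freedom, a variance prior with a trend, and Benjamini-Hochberg adjusted two-sided p over 16124 genes. Genes were called at an adjusted p below 0.05 where the fold change reached 1.5. FPKM values are not counts, so the negative binomial test of the methods was not used. The procedure was tested on simulated data. Depth was 5.44 to 7.49 gigabases per library. Alternatives changed the pseudocount, filter, scaling, gene sum, variance model, limits and libraries. Motifs were searched in RefSeq promoters (GRCr8), where 34 of 40 members had an entry. Members called in a comparison with control are given with values, and members under 0.5 FPKM are only named. Of the gene lists, up to 2 called genes with the largest rise and 2 with the largest fall 24 h after 20 Gy, Irf1, Rfx5, Ciita, Cd74 and Psmb5 to Psmb7 are named. Other genes behind counts of 5 or fewer were named after their values were seen. The members and lists were chosen with earlier results of these data known.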

Additional observations from a re-analysis of the deposited data

Results flagged for a closer look

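The results in this part were drawn out because the same exposure gave different levels at 12 h and at 24 h, by the limma test of the 24 h against the 12 h group within 1 dose. After 5 Gy the log2 difference was 1.86 for Tap1, -0.64 for Psmb9, -0.88 for RT1-M3-1 and -0.73 for RT1-T24-3. After 20 Gy it was 1.02 for Tap1, -0.99 for Psmb10, -1.78 for RT1-CE5 and -0.74 for RT1-M3-1. RT1-T24-3 passed the filter on low values through the controls and 12 h groups, so its test is no support for a fall. Tap1 and RT1-M3-1 were drawn out after both doses, in opposite directions. The RT1-CE5 call was lost without replicate 2 at 12 h (-1.21, adjusted p 0.11, limma) or replicate 1 at 24 h (-1.44, adjusted p 0.10). The 4 members called after each dose were 17.4% of the members, against 28.6% and 28.9% of all genes. In each of these comparisons every 24 h library lay on 1 side of every 12 h library. The members were drawn out by these same comparisons, so this separation adds no support. Over the same interval the summed fibroblast markers went from 1176 to 1382 FPKM down to 363 to 497 FPKM after 5 Gy, and from 1186 to 1338 FPKM down to 304.0 to 448 FPKM after 20 Gy. Of the 8 markers, only Col1a1 and Col3a1 were called lower over this interval after 5 Gy, and these and Fn1 after 20 Gy. Of all genes, 16.9% and 18.9% were called lower over it. Pdgfra went the other way after 5 Gy, from 50.2 to 60.8 FPKM. The part of the fibroblast markers in these differences was not tested.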

How the results depend on the processing

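The member calls totalled 24 over the 8 comparisons, counting those of Nlrc5, RT1-T24-1 and RT1-T24-3, which are no support for a change. Of these 24, 9 were kept under every alternative and with any library left out, 8 were lost with at least 1 library left out, 15 were lost under at least 1 alternative, and 0 changed direction. A fold limit of 2 gave 0 calls 12 h after 5 Gy, 5 at 24 h after 5 Gy, 1 between 24 h and 12 h after 5 Gy and 2 between 24 h and 12 h after 20 Gy. Using the transcript with the highest mean FPKM gave 1 call 12 h after 5 Gy, fitting only the compared groups gave 1 call 12 h after 20 Gy, and a pseudocount of 0.1 gave 6 calls at 24 h after 20 Gy. An unadjusted p gave 2 calls between the doses at 12 h. With each library left out in turn the calls ranged from 1 to 2 at 12 h after 5 Gy, 1 to 2 at 12 h after 20 Gy, 6 to 11 at 24 h after 5 Gy, 3 to 5 at 24 h after 20 Gy, 4 to 6 and 3 to 5 between the times after 5 Gy and 20 Gy, and 0 to 0 and 0 to 1 between the doses at 12 h and 24 h. For the gene sums, libraries that alone decided a call are named beside the result. With the replicate number as a replicate block the counts were 2, 2, 9, 3, 4, 4, 0 and 0 in the order above. Samples with the same number did not deviate together (correlation of deviations -0.077 to 0.108, median 0.004), so the numbers were not taken as pairs. The cause of the changed counts was not tested. Groups of 3 libraries limit precision, and an exact permutation test of 3 against 3 cannot go below 0.1. The FPKM of close copies in the class I loci are estimates of a split of reads.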
